A study of Mus musculus with 30 samples.

Results

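The MSL and NSL histone acetyltransferase complexes were followed through 10 genes, which were taken from the count table by matching its Ensembl identifiers to gene symbols in GENCODE M21. The 10 genes are Msl1, Msl2, Msl3 and Kat8 for MSL, and Kansl1, Kansl2, Kansl3, Mcrs1, Phf20 and Wdr5 for NSL, out of 55240 genes with a symbol. Bulk RNA was sequenced from mouse embryonic stem cells (ESCs), female F1 hybrids of 129/Sv and Cast/Ei grown on feeder fibroblasts in serum with LIF, and the study asked how cells adjust X-linked expression when X material is lost. The 30 libraries fell into 17 conditions, of which 13 had 2 libraries and 4 had 1. The 10 genes were followed because MSL is the complex that sets X dosage in flies, and NSL shares its catalytic subunit. Whether they act on X dosage in these cells was not tested here. For H4K16ac, a histone H4 acetylation mark, the study saw no significant rise on the upregulated X of XO ESCs.

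The groups were defined by X-chromosome content. XX wild type cells (2 libraries) carried both X chromosomes intact. XX Rnf12+/- cells (2 libraries) lacked Rnf12 on the 129 X and were the parental line of the deletion lines. These 4 are called the XX libraries. XCastO129 cells (2 libraries) kept only the Cast X and X129OCast cells (2 libraries) kept only the 129 X, and both lines had arisen by loss of a chromosome during gene targeting. The labels of the XO lines gave no Rnf12 genotype. Rnf12 RNA was nearly absent from X129OCast and present in XCastO129, as given below. The 13 deletion lines (22 libraries) were all Rnf12+/- and each lacked 1 segment of the 129 X, with the names AB, A, B, E, C-G, C, D, F, I-TEL, I, H, J and K, and with a neomycin cassette left in place. Lines A, B, AB and C-G were single clones, whereas the 2 libraries of each other line came from independent clones. J and I-TEL were made in a second Rnf12+/- founder. XX wild type, XX Rnf12+/- and E shared a library-name prefix, the other 12 deletion lines shared another, and the XO libraries had their own and were read as single ends. Comparisons across prefixes therefore mix genotype with prefix, and for XO cells also with read type, and these cannot be told apart.

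MSL and NSL share 1 catalytic subunit, KAT8 (MOF), which acetylates histone H4. In MSL the scaffold MSL1 holds KAT8 together with MSL2, a RING-type ubiquitin ligase, and MSL3, a chromodomain protein, and in male flies this complex coats the single X and raises its transcription. NSL holds KAT8 with the scaffold KANSL1, with KANSL2, KANSL3, MCRS1, the methyl-lysine reader PHF20 and the WD-repeat adaptor WDR5, and it sits mainly at promoters of housekeeping genes. HCFC1, a transcriptional coregulator, and OGT, an O-GlcNAc transferase that modifies and cleaves HCFC1, are partners of NSL and are both encoded on the X.

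Positions are given on GRCm38 (mm10). Msl1 (ENSMUSG00000052915) spanned 98795516 to 98807859 on chromosome 11 and Kansl1 (ENSMUSG00000018412) 104333229 to 104468861 on the same chromosome. Kansl2 (ENSMUSG00000022992, 98517658 to 98534264) and Mcrs1 (ENSMUSG00000037570, 99242817 to 99251961) lay on chromosome 15. Phf20 (ENSMUSG00000038116, 156196466 to 156309952) and Wdr5 (ENSMUSG00000026917, 27515157 to 27536535) lay on chromosome 2. Msl2 (ENSMUSG00000066415) was on chromosome 9 from 101074101 to 101104800, Kat8 (ENSMUSG00000030801) on chromosome 7 from 127912516 to 127925837, and Kansl3 (ENSMUSG00000010453) on chromosome 1 from 36335730 to 36369181. The only X-linked member was Msl3 (ENSMUSG00000031358), from 168654117 to 168673898. It lies inside the I-TEL segment and in no other deletion, so that it was present in 1 copy in the XO lines and in I-TEL and in 2 copies elsewhere. Hcfc1 (ENSMUSG00000031386, X, 73942792 to 73966357) had 1 copy in the XO lines, E and C-G, and Ogt (ENSMUSG00000034160, X, 101640060 to 101684351) had 1 copy in the XO lines and C-G.

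The promoters of Msl3 and Hcfc1 are shown because Msl3 is the X-linked member and Hcfc1 is the X-linked partner that was called higher per copy in every line that had lost 1 copy. RefSeq sequence on GRCm38.p6, 250 bases before to 50 bases after the start, was read on the minus strand at chrX:168673823-168674122 for Msl3 and at chrX:73966308-73966607 for Hcfc1. Capitals mark CG dinucleotides.
Msl3: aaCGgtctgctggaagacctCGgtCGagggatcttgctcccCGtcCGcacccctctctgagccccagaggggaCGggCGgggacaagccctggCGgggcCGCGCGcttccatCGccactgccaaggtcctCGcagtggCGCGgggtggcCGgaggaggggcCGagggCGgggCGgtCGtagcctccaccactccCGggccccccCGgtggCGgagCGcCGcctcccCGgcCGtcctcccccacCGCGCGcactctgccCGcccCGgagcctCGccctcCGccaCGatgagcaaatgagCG
Hcfc1: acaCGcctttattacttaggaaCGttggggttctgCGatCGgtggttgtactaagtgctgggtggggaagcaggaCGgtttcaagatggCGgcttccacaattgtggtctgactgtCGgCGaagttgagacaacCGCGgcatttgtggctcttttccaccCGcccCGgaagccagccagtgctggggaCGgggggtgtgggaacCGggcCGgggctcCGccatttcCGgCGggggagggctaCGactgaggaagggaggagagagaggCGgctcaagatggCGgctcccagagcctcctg
The Msl3 window held 36 CG dinucleotides, more than 93.8% of 32851 RefSeq promoter windows, and the Hcfc1 window held 21, more than 75.2% of them. The windows of the other members and Ogt held between 12 (Kat8) and 32 (Kansl3), against a median of 7 over all windows. Of 6 motifs searched on both strands, Msl3 held none. The Hcfc1 window held AAGATGGC, the core of YY1 sites, at 2 places and GAGAGAGA at 1, whereas 2.75% and 3.93% of all windows hold these. Kansl2 also held AAGATGGC. CCGGAAGT, an ETS core found in 3.89% of windows, was in Kat8 and Mcrs1, GCATGCGC, an NRF1 core found in 2.71%, was in Msl2 and Ogt, and neither ACTACAA (3.24% of windows, a core of ZNF143 sites) nor CACGTG (7.15%, the E-box) was in any of the 12. A match is only a match of letters.

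Total counts were 20375194 to 21181405 in the XX and E libraries, 14998265 to 16494893 in the XO libraries and 8816184 to 10680026 in the 12 other deletion lines, of which at most 12.7% (paired) or 22.0% (single) were assigned to an allele. Rnf12, annotated as Rlim, was at 193 and 211 TPM (counts scaled by gene length and library total) in XX wild type, 77.6 and 79.7 in XX Rnf12+/-, 71.2 and 77.8 in XCastO129 and 3.53 in both X129OCast libraries, and at 50.4 to 144 in the deletion lines, the highest being C. Genes inside a deleted segment were counted as 1 copy in its line. There, 129 reads made up 4.38% and 5.03% of allelic reads in I-TEL. They made up 33.0% and 31.8% in D, 16.8% and 22.8% in E, 13.9% in AB and 0.666% to 8.6% in the other lines apart from I. In the 2 libraries labelled I they made up 66.7% of 42 and 79.4% of 34 reads over 9 expressed genes, which goes against the label as far as so few reads can show. All 8 ESC markers exceeded 5 TPM in every library, with a summed level of 4730 to 4830 TPM in X129OCast, 5490 to 5830 in XCastO129 and 6510 to 6980 in XX Rnf12+/-. Of 8 feeder fibroblast markers none was at 0 in every library of a group, and their sum was 98.9 and 324 TPM in XX Rnf12+/-, 98.1 to 221 in the XO libraries and 66.5 to 259 in the 12 lines. Primitive endoderm markers summed to 11.7 to 26.0 TPM over all libraries. The part of these cells in any result was not tested. P-values of the main fit rest on the spread between libraries of a condition, pooled over the 13 conditions with 2 libraries. The study's figure legends describe the replicates of XX, XCastO129 and deletion cells as independent clones. For X129OCast this was not given in the sources used here. A, B, AB and C-G had 1 library each, so a call in them took its spread from the other conditions, assumes that the lone library varies as they do, and could not be tried without that library. Bulk RNA does not separate fewer cells of a type from less RNA per cell.

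All 10 genes were expressed, defined as a mean above 5 TPM in XX Rnf12+/-, the filter that left 11703 genes for testing. Wdr5 was the most abundant by far. Its mean in XX Rnf12+/- was 490.4 TPM ± 46.1 (SD, n = 2), above 97.5% of expressed genes, and it exceeded every other member in 30 of 30 libraries. Then came Kansl1 at 66.1 ± 4.02, Mcrs1 at 61.3 ± 0.25, Phf20 at 51.1 ± 5.92, Msl2 at 50.3 ± 2.15, Kansl2 at 47.6 ± 3.69, Kat8 at 42.2 ± 1.44 and Kansl3 at 38.0 ± 0.792. The least abundant were Msl1 at 22.6 ± 2.68 and Msl3 at 18.7 ± 3.61, which 43.3% and 37.3% of expressed genes fell below. Neighbours in this order were not separated beyond their spread: Kansl1 exceeded Mcrs1 in 10 of 30 libraries, Msl2 exceeded Kansl2 in 7, Kat8 exceeded Kansl3 in 19 and Msl1 exceeded Msl3 in 17. Exceptions were Wdr5 above all others, Mcrs1 above Phf20 in all 30, and Kansl3 above Msl1 in all 30. Msl3 rested on 69 to 375 counts a library and is the least precise value of the list. Part of its reads could belong to the Msl3l2 paralogue on chromosome 10, which stood at 1.39 to 8.07 TPM and below the filter.

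**Figure D1:**
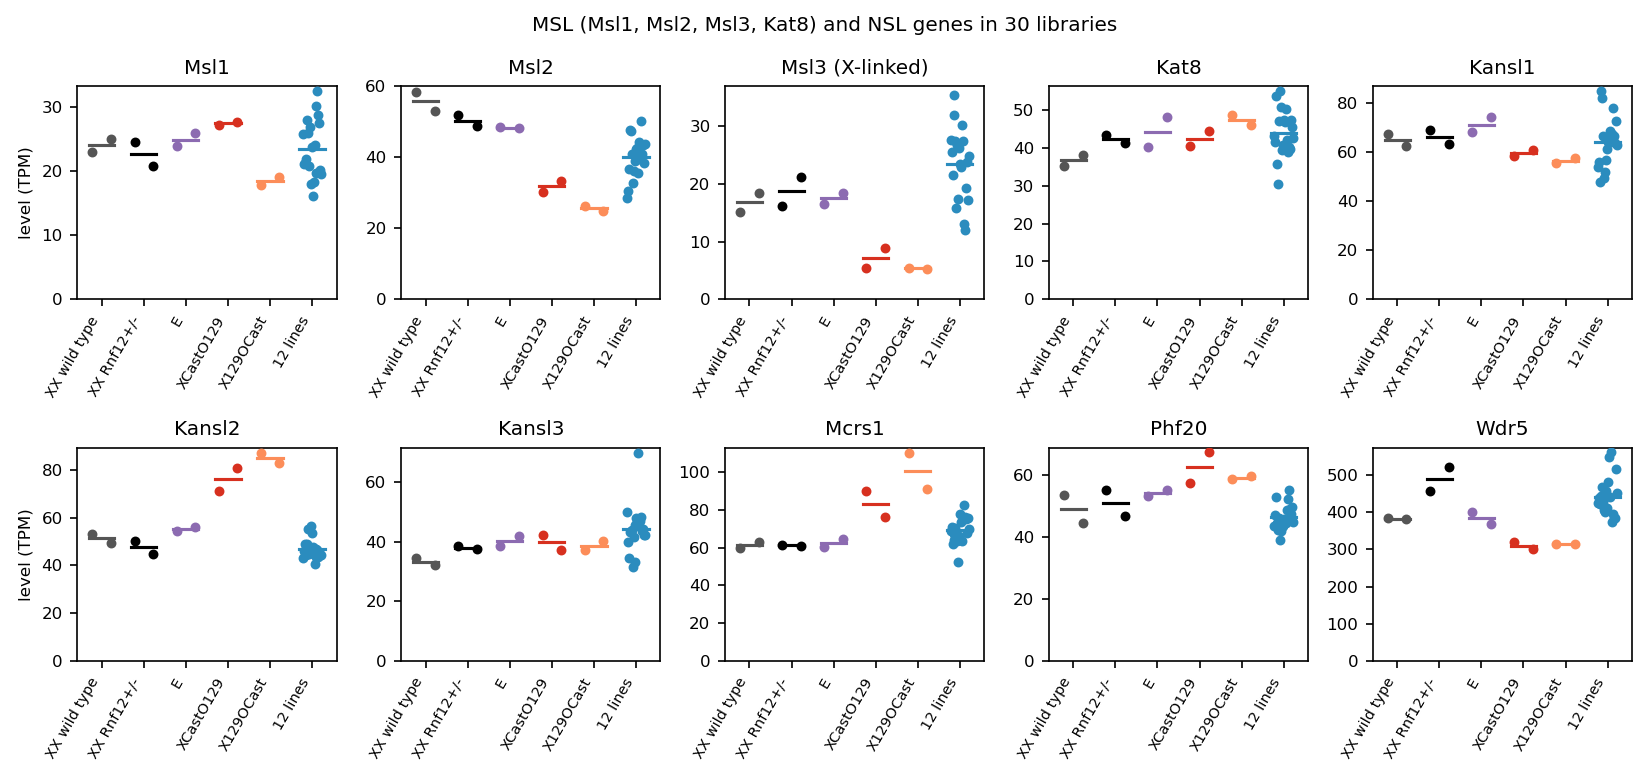
Level (TPM, linear axis from 0) of the 10 genes in each of the 30 libraries; points are libraries and bars are means of the libraries shown together. The 4 XO libraries lie below the XX and E libraries for Msl2, Msl3, Kansl1 and Wdr5 and above them for Kansl2, Mcrs1 and Phf20. For Kansl3, 1 deletion library stands out at 69.8 TPM. For Msl2 the 12 other deletion lines reach from 28.4 to 50.1 TPM and overlap the XO libraries.

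The members differed in how their reads divided between the alleles. Kansl2 was read mostly from Cast in every library: 27.9% of 8482 allelic reads over the 30 libraries were 129 (95% Wilson interval 26.9% to 28.8%), with a range from 19.3% (D clone 1) to 41.4% (X129OCast library 1). Mcrs1, which lies near it on the same chromosome, was read mostly from 129 in every library, at 63.2% of 5091 reads (61.9% to 64.5%). The other autosomal members were near balance, between 46.7% (Wdr5, 45.9% to 47.5%) and 53.0% (Kat8, 50.6% to 55.3%). Msl3 gave 49.6% of 492 reads (45.2% to 54.0%) over the 24 libraries with 2 copies. These intervals cover counting error only, and alignment to a masked genome can favour an allele.

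XX Rnf12+/- was first set against XX wild type to ask whether the parental background moved these genes. Of the 10 members Wdr5 was called higher, and 3.07% of all genes were called in either direction. Wdr5 was at 384 and 382 TPM in XX wild type and at 458 and 523 TPM in XX Rnf12+/-, so that the groups did not overlap. The log2 fold change was 0.38 (SE 0.10, edgeR adjusted p = 0.0474). It was no longer called with the replicate number as a block (0.38, edgeR adjusted p = 0.0549), when the fit held only these groups (0.39, edgeR adjusted p = 0.377), without XX Rnf12+/- library 2 (0.28, edgeR adjusted p = 0.261) or without either wild type library (0.38 in both, edgeR adjusted p = 0.153 and 0.23). Kat8 differed by 0.23 (95% interval -0.02 to 0.48) and the remaining 8 members by -0.12 to 0.21. Hcfc1 differed by 0.19 and Ogt by -0.08 per copy.

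Relative to XX Rnf12+/-, both XO lines had a lower level of Msl2 and Wdr5 and a higher level of Kansl2, Mcrs1 and Phf20. XCastO129 had 5 of 10 members called against XX Rnf12+/-, 3 higher and 2 lower, where 41.1% of all genes were called. X129OCast had 6 of 10 called, 3 higher and 3 lower, where 54.0% of all genes were called. The members' shares were close to those of all genes, and their median log2 fold change was 0.10 and 0.01 against -0.06 and -0.07 over all genes tested. The XO lines share the XX Rnf12+/- reference, so the 2 comparisons are not independent. In X129OCast, loss of the Cast X also cannot be told apart from the near absence of Rnf12. Of 8 ESC markers 5 fell in each XO line and 1 rose in XCastO129, and their part in these results was not tested.

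Msl2, the ubiquitin ligase of MSL, was lower in all 4 XO libraries than in any XX library. It was at 51.8 and 48.8 TPM in XX Rnf12+/- and at 58.3 and 53.0 in XX wild type. XCastO129 had 30.3 and 33.4 TPM and X129OCast had 26.3 and 24.8. The log2 fold change was -0.59 (SE 0.10, edgeR adjusted p = 0.000203) in XCastO129 and -0.86 (SE 0.10, edgeR adjusted p = 2.32e-06) in X129OCast. Both calls held under each of the 11 alternatives run for them, XX wild type as reference included (-0.71 and -0.99). The mean of 12 deletion lines, which keep both X chromosomes, was also below XX Rnf12+/- (-0.47, edgeR adjusted p = 0.000116). These lines have another library-name prefix than XX Rnf12+/-, and prefix cannot be told apart from deletion in that comparison. Deletion E, which shares the prefix of XX Rnf12+/-, had 48.2 and 48.3 TPM of Msl2 and was not called. The 20 libraries of the 12 lines ranged from 28.4 to 50.1 TPM, with A (28.4), B (30.4) and the lower D clone (32.7) inside the XO range.

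Kansl2 and Mcrs1, the neighbours on chromosome 15, were both higher. The 409 expressed coding genes of that chromosome had median ratios of 1.03 and 1.0 in XCastO129 and 1.07 and 1.05 in X129OCast. In XX Rnf12+/- the ratios were 0.987 and 1.02, all taken to each gene's median over the 20 libraries of the 12 other deletion lines. Kansl2 was at 45.0 and 50.2 TPM in XX Rnf12+/-, 71.3 and 80.8 in XCastO129 and 87.1 and 82.8 in X129OCast, with no overlap between the XX and XO libraries. Its log2 fold changes were 0.74 (SE 0.09, edgeR adjusted p = 2.85e-06) and 0.95 (SE 0.09, edgeR adjusted p = 1.02e-07), and they held under all 11 alternatives. Mcrs1, a forkhead-associated domain protein that INO80 also contains, was at 61.5 and 61.1 TPM in XX Rnf12+/-, 90.2 and 76.4 in XCastO129 and 110.2 and 91.2 in X129OCast. Again the XX and XO libraries did not overlap, and the log2 fold changes were 0.51 (SE 0.12, edgeR adjusted p = 0.00226) and 0.83 (SE 0.12, edgeR adjusted p = 1.59e-05). In XCastO129 the Mcrs1 call was lost when the fit held only the groups compared (0.50, edgeR adjusted p = 0.0686).

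Phf20, the methyl-lysine reader, was higher by a smaller amount. It was at 55.2 and 46.9 TPM in XX Rnf12+/-, 57.6 and 67.6 in XCastO129 and 58.8 and 59.8 in X129OCast, all 4 XO libraries above all 4 XX libraries. The log2 fold change was 0.36 (SE 0.09, edgeR adjusted p = 0.00477) in XCastO129 and 0.33 (SE 0.09, edgeR adjusted p = 0.00639) in X129OCast. Without XX Rnf12+/- library 2 both calls were lost (0.27 and 0.22, edgeR adjusted p = 0.0574 and 0.0965). The XCastO129 call was also lost without XCastO129 library 2 (0.24, edgeR adjusted p = 0.0773) and when the fit held only the groups compared (0.35, edgeR adjusted p = 0.152).

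Wdr5 was lower in the XO lines, but how far depended on the reference. The XO libraries had 301 to 319 TPM, below every XX library. Against XX Rnf12+/- the log2 fold change was -0.59 (SE 0.10, edgeR adjusted p = 0.000176) in XCastO129 and -0.53 (SE 0.10, edgeR adjusted p = 0.000301) in X129OCast. Against XX wild type it was -0.21 and -0.15, neither called (edgeR adjusted p = 0.0983 and 0.225).

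The other members were not called in either XO line, apart from Msl3. Kat8, the enzyme of both complexes, was at 43.2 and 41.2 TPM in XX Rnf12+/-, 40.3 and 44.5 in XCastO129 and 48.5 and 46.0 in X129OCast. Its log2 fold changes were 0.07 (95% interval -0.17 to 0.32) and 0.27 (0.03 to 0.52, edgeR adjusted p = 0.0566). The scaffold Kansl1 differed by -0.08 (-0.25 to 0.09) and -0.12 (-0.28 to 0.05), and Kansl3 by 0.13 (-0.19 to 0.45) and 0.14 (-0.19 to 0.46). Though not called, Kansl1 did not overlap in TPM, at 55.5 to 60.8 in the XO libraries and 62.7 to 74.3 in the XX and E libraries. Msl1 differed by 0.34 (0.04 to 0.65, edgeR adjusted p = 0.0656) in XCastO129 and by -0.19 (-0.49 to 0.12) in X129OCast.

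**Figure D2:**
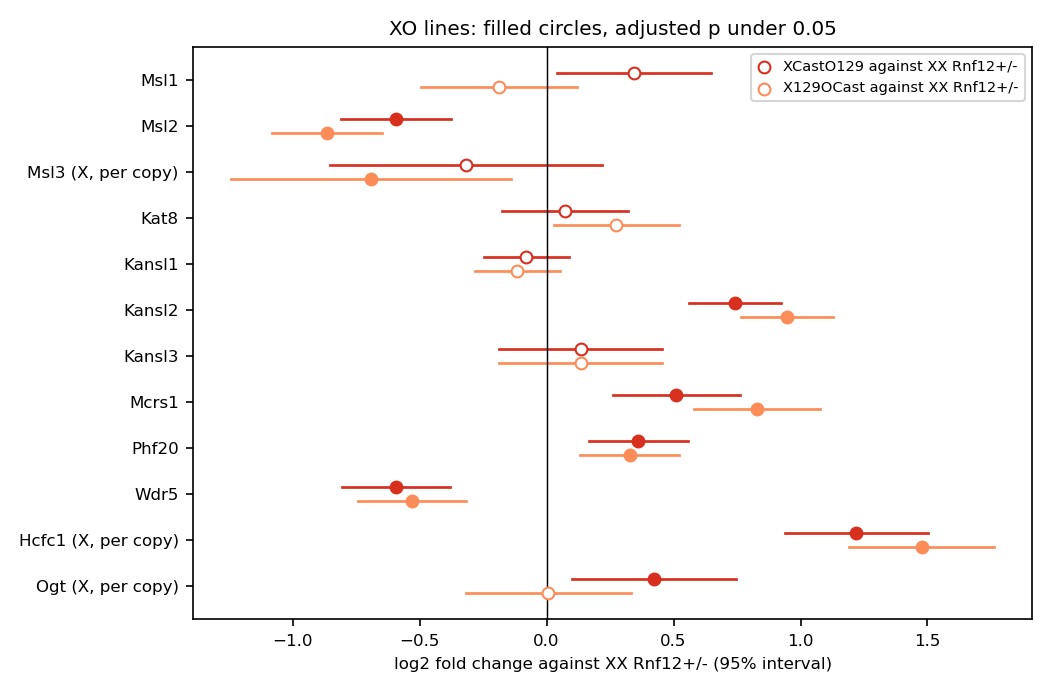
Log2 fold change of each gene in the 2 XO lines against XX Rnf12+/- with 95% intervals, the X-linked genes per copy; filled circles were called. Msl2 and Wdr5 lie below 0 and Kansl2, Mcrs1, Phf20 and Hcfc1 above 0 in both lines.

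The 2 XO lines were compared with each other because they share read type and library-name prefix. Msl1, the MSL scaffold, was the 1 member of 10 that was called, where 8.82% of all genes were. It was at 27.1 and 27.7 TPM in XCastO129 and at 17.8 and 19.0 in X129OCast, a log2 fold change of -0.53 (SE 0.15, edgeR adjusted p = 0.0309). The call was lost in the fit of these groups alone (edgeR adjusted p = 0.0999) and when any 1 of the 4 libraries was left out (edgeR adjusted p = 0.072 to 0.176), with the value between -0.57 and -0.49. Msl2 differed by -0.27 (95% interval -0.49 to -0.05, edgeR adjusted p = 0.111), Mcrs1 by 0.32 (0.07 to 0.57, edgeR adjusted p = 0.101), Kansl2 by 0.20 (0.02 to 0.38, edgeR adjusted p = 0.146) and Wdr5 by 0.06 (-0.15 to 0.28). Rnf12 itself also separates these lines, at 71.2 and 77.8 TPM against 3.53, so the level of Rnf12 and the identity of the lost X cannot be told apart.

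Msl3 is the member whose own dose changed. In TPM over both alleles it was at 16.1 and 21.2 in XX Rnf12+/-, 15.1 and 18.4 in XX wild type, 5.42 and 8.90 in XCastO129 and 5.47 and 5.24 in X129OCast, all XO values being lower. Per copy, the log2 fold change was -0.32 (SE 0.25, 95% interval -0.85 to 0.22, edgeR adjusted p = 0.336) in XCastO129 and -0.69 (SE 0.26, -1.24 to -0.14, edgeR adjusted p = 0.0339) in X129OCast. The X129OCast call was lost with XX wild type as reference (-0.51, edgeR adjusted p = 0.109), without XX Rnf12+/- library 2 (-0.47, edgeR adjusted p = 0.212) and without either X129OCast library (-0.74 and -0.65, edgeR adjusted p = 0.0992 and 0.136). The XCastO129 value ran from -0.71 without its library 2 to -0.02 without its library 1, neither called. The remaining copy was not called higher in either XO line under any alternative. Over all 477 X-linked genes tested, the median per copy was -0.15 in XCastO129 and -0.24 in X129OCast, and 179 and 138 of them lay below Msl3. The Msl3 reads came from the retained X in X129OCast (17 of 17 reads 129) and in XCastO129 library 2 (0 of 21 reads 129, which allows a share of up to 14.3%), whereas 4 of 11 reads were 129 in XCastO129 library 1 (36.4%, 15.2% to 64.6%). Over 374 X-linked genes that library had 4.48% 129 reads, close to the 4.56% of library 2, and its feeder markers summed to 116 TPM against 221 TPM there. Their part in the 4 reads was not tested.

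Deletion I-TEL removes 1 Msl3 copy in cells that keep both X chromosomes, and here the comparison stays within the 20 libraries of 1 prefix. Msl3 over both alleles was at 13.08 and 11.95 TPM in the 2 I-TEL clones. The other 18 libraries ranged from 15.8 to 35.4 with a median of 25.1, all above I-TEL. The ratio of the means was 0.507 (exact permutation test over 2 against 18 libraries, two-sided p = 0.0105, the smallest this design allows). This test counts each clone as its own unit, although both I-TEL clones are of 1 line from the second founder. Per copy the level was 12.5 TPM ± 0.794 (SD, n = 2) in I-TEL and 12.3 ± 2.61 (SD, n = 18) elsewhere (exact permutation test, two-sided p = 0.968), and 8 of the 18 libraries lay above both clones and 8 below both. In the fit the log2 fold change per copy against the other 11 lines was -0.03 (SE 0.20, 95% interval -0.44 to 0.39, edgeR adjusted p = 0.948), where 16.8% of all genes were called, and 140 X-linked genes with 1 copy in I-TEL had a median of 0.12. Against XX Rnf12+/- it was 0.29 and against J, the other line of the second founder, 0.18, neither called.

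Reads of the remaining Cast allele were too few to settle the same comparison. I-TEL had 13 and 10 Msl3 Cast reads, or 21.9 and 17.0 when scaled to 1000000 autosomal Cast reads. The other 18 libraries had 8.71 to 26.6 with a median of 15.8. The mean was 1.24 times higher in I-TEL and the log2 ratio 0.31, a difference within the spread of the libraries (exact permutation test, two-sided p = 0.221), and 1 of the 18 libraries exceeded both clones. With 5 to 16 Cast reads a library, a change of this size was not detectable at this depth. On the deleted side 1 of 14 and 3 of 13 allelic reads were 129, that is 7.14% (95% Wilson interval 1.27% to 31.5%) and 23.1% (8.18% to 50.3%).

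Hcfc1, the X-linked coregulator that partners NSL, was called higher per copy in the 4 lines that had lost 1 copy, of which C-G was 1 library with no spread of its own and E lost the call under 3 of 10 alternatives. Over both alleles, Hcfc1 was at 338 and 269 TPM in XX Rnf12+/- and 317 and 223 in XX wild type with 2 copies. With 1 copy it was at 314 and 361 in XCastO129 and 378 and 403 in X129OCast, so the XO libraries were not below the XX libraries. In E, also with 1 copy, it was at 273 and 312 TPM, and in C-G at 271 TPM against 216 to 338 in the 19 other libraries of that prefix. Per copy the log2 fold change was 1.22 (SE 0.13, edgeR adjusted p = 1.58e-06) in XCastO129, 1.48 (SE 0.14, edgeR adjusted p = 1.07e-07) in X129OCast, 0.89 (SE 0.13, edgeR adjusted p = 0.00834) in E and 0.96 (SE 0.12, edgeR adjusted p = 0.000663) in C-G. Among X-linked genes with 1 copy, 261 of 477 were called in either direction in XCastO129, 302 of 477 in X129OCast and 4 of 60 in E. Above Hcfc1 lay 36, 31 and 5 of these genes, and 24 of 234 in C-G. Over the 60 genes inside E, 129 reads made up 16.8% and 22.8% of allelic reads. A copy number of 1 is thus less sure for some of them, and so is the rank in E. For Hcfc1 itself the retained allele supplied the reads. Its allelic reads were 0.295% to 2.13% 129 in XCastO129, E and C-G, and 99.9% in X129OCast. The E call was lost without XX Rnf12+/- library 2 (0.72, edgeR adjusted p = 0.174), without E clone 2 (0.82, edgeR adjusted p = 0.149) and in the fit of these groups alone (0.88, edgeR adjusted p = 0.428). Ogt, the O-GlcNAc transferase, was at 143 and 147 TPM in XX Rnf12+/-, 88.6 and 96.8 in XCastO129, 66.3 and 68.6 in X129OCast and 102 in C-G. Per copy it was 0.42 (SE 0.15, edgeR adjusted p = 0.0358) in XCastO129, a call lost when any 1 of the 4 libraries was left out (edgeR adjusted p = 0.0646 to 0.147), in the fit of these groups alone (0.42, edgeR adjusted p = 0.0567) and against XX wild type (0.34, edgeR adjusted p = 0.079). It was 0.01 (95% interval -0.32 to 0.33) in X129OCast and 0.44 in C-G, not called.

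**Figure D3:**
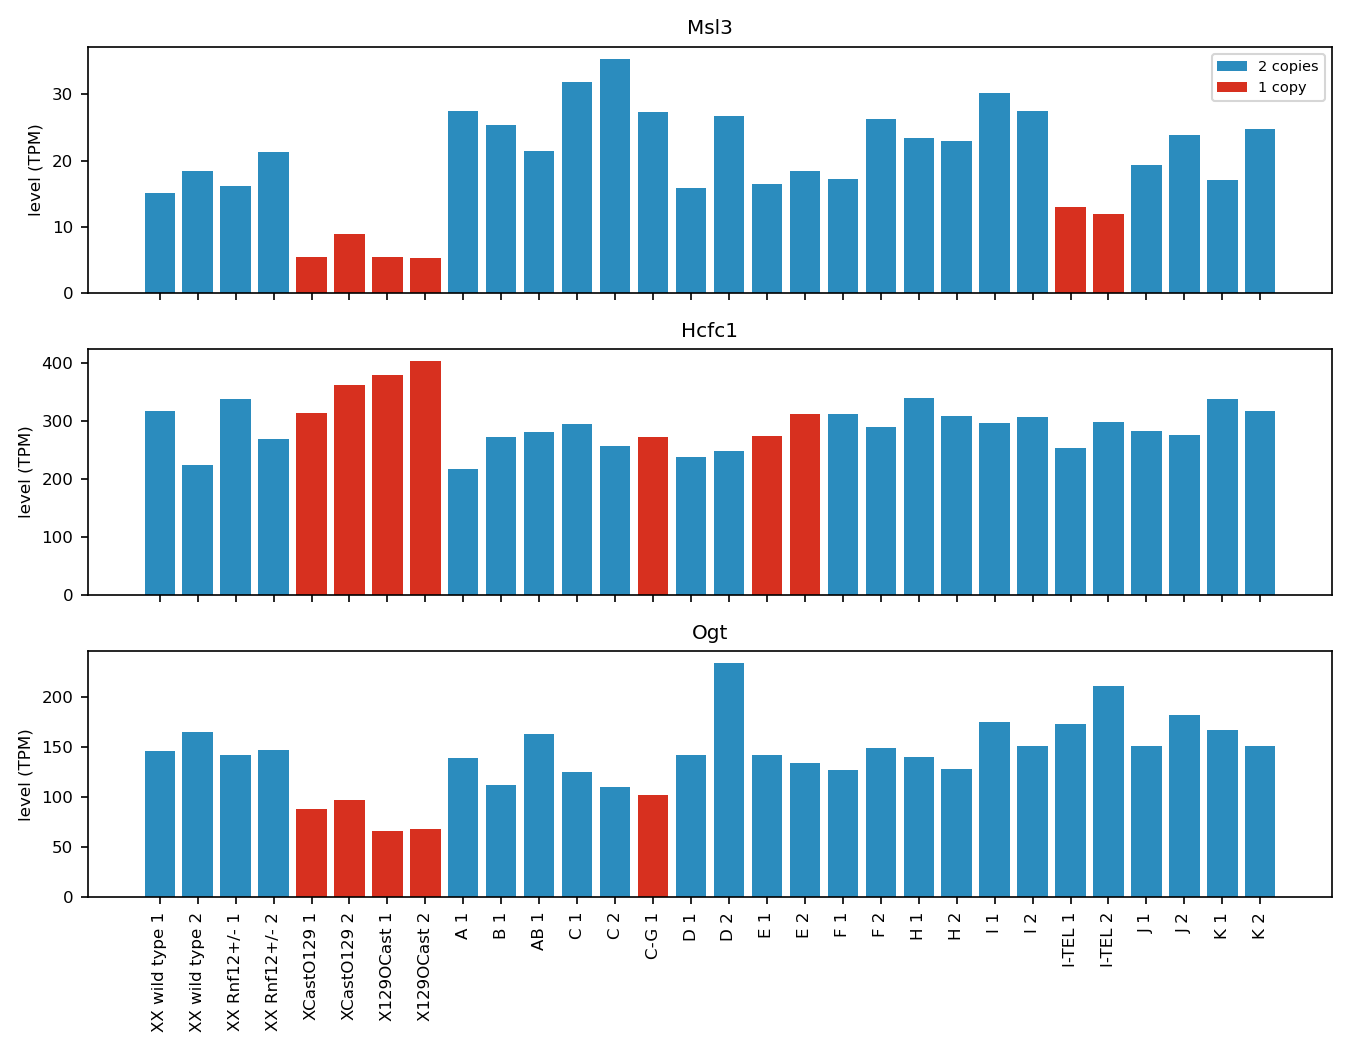
Level over both alleles (TPM, bars from 0) of Msl3, Hcfc1 and Ogt in each library, blue with 2 copies and red with 1. Red bars are the lowest for Msl3 among all libraries, while for Hcfc1 they reach 271 to 403 TPM and overlap or exceed the blue bars.

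Deletion E, which shares its prefix with XX Rnf12+/-, had 0 of 10 members called by edgeR, where 0.222% of all genes were called. At an unadjusted p under 0.05 there was 1 member, Wdr5, at 401 and 368 TPM against 458 and 523 in XX Rnf12+/- (log2 fold change -0.41, SE 0.10, edgeR adjusted p = 0.115), which DESeq2 did call. The XX wild type values of 384 and 382 TPM lay between those of the E clones. The remaining 9 members differed by -0.15 to 0.16 and Ogt by -0.12.

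The mean of the other 12 deletion lines was lower than XX Rnf12+/- for 4 of 10 members and higher for none, where 36.1% of all genes were called. The median was -0.08 for the members and -0.05 for all genes, and library-name prefix cannot be told apart from deletion here. Msl2 ranged from 28.4 to 50.1 TPM in the 20 libraries with a median of 40.8, and 1 of them passed the lower of the 48.8 and 51.8 of XX Rnf12+/- and none the higher. Its log2 fold change was -0.47 (SE 0.07, edgeR adjusted p = 0.000116), and it held under all 28 alternatives. Kansl1 (-0.17, SE 0.06, edgeR adjusted p = 0.0277), Phf20 (-0.22, SE 0.07, edgeR adjusted p = 0.0173) and Wdr5 (-0.25, SE 0.07, edgeR adjusted p = 0.014) were also lower, with libraries of the 2 groups overlapping. Kansl1 and Phf20 lost the call without XX Rnf12+/- library 1 (-0.13 and -0.12, edgeR adjusted p = 0.306 and 0.406) and Wdr5 without library 2 (-0.16, edgeR adjusted p = 0.223). Msl3 per copy differed by 0.31 (95% interval -0.07 to 0.69), Hcfc1 by -0.12 and Ogt by 0.0021. Of the feeder markers 3 of 5 tested fell in the same comparison and of the ESC markers 3 of 8, and their part in it was not tested.

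Each of the 12 lines was then set against the mean of the other 11, which keeps the comparison within 1 prefix. Of 120 pairs of member and line, 16 were called in either direction (13.3%), 10 higher and 6 lower. Of all 140436 pairs of gene and line, 7994 were called higher (5.69%) and 7408 lower (5.28%). The 13.3% is to be set against these shares added together, and it is then close to that of all genes. The called changes were small, from 0.19 to 0.50 on the log2 scale in either direction, and 8 of the 12 lines had one. Kansl1 was called in 4 lines. Mcrs1 and Phf20 were called in 0 of 12 lines by edgeR and by DESeq2, with an unadjusted p under 0.05 in 0 and 3 lines.

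Deletion C stood out with 4 members called, but 41.4% of all genes were called in it. Kansl1 was at 85.2 and 82.2 TPM in the C clones, above the 47.8 to 78.1 of the other 18 libraries (log2 fold change 0.46, SE 0.06, edgeR adjusted p = 7.08e-06). Kat8 was at 35.7 and 30.4 TPM, below all the others, which began at 38.9 (-0.45, SE 0.10, edgeR adjusted p = 0.000977), and it lost the call without clone 2 (-0.35, edgeR adjusted p = 0.0569). Msl3 was at 31.9 and 35.4 TPM, the highest 2 of the 20 libraries (0.49 per copy, SE 0.17, edgeR adjusted p = 0.0305), with the call lost without either clone (edgeR adjusted p = 0.0976 and 0.258). Msl2 was at 47.7 and 47.3 TPM (0.32, SE 0.08, edgeR adjusted p = 0.00258), but against XX Rnf12+/- its direction turned to -0.17 (edgeR adjusted p = 0.195).

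Kat8 and Kansl1 moved in opposite directions in D as well, with their signs exchanged. In D, where 16.1% of all genes were called, Kat8 was at 55.0 and 50.6 TPM (0.31, SE 0.09, edgeR adjusted p = 0.0252) and Kansl1 at 49.4 and 51.9 TPM (-0.31, SE 0.06, edgeR adjusted p = 0.00378). The Kat8 call in D was lost without either clone (0.21 and 0.40, edgeR adjusted p = 0.38 and 0.0553), when C was left out of the reference (0.27, edgeR adjusted p = 0.0563, an alternative chosen after the data were seen) and against XX Rnf12+/- (0.26, edgeR adjusted p = 0.106), and the Kansl1 call without either clone (edgeR adjusted p = 0.0672 and 0.0519). In AB, where 2.62% of all genes were called, Kansl1 was at 47.8 TPM (-0.42, SE 0.09, edgeR adjusted p = 0.0149) and Kat8 at 53.7 TPM, the latter not called, and AB was 1 library with no spread of its own. Over the 20 libraries the Pearson correlation of the log2 levels of Kat8 and Kansl1 was -0.632, a description over libraries that share lines and culture.

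The calls in the remaining lines concerned 1 to 3 members each. In A, where 7.9% of all genes were called, Msl2 was at 28.4 TPM, the lowest of the 20 libraries (-0.50, SE 0.12, edgeR adjusted p = 0.0153). A was 1 library, and none of the 28 alternatives, under which the call held, bears on the spread between A clones. In F, where 6.0% were called, Kansl2 was at 56.6 and 53.5 TPM (0.29, SE 0.07, edgeR adjusted p = 0.015), lost without clone 1 (0.22, edgeR adjusted p = 0.212) and against XX Rnf12+/- (0.16, edgeR adjusted p = 0.197). In H, where 5.93% were called, Msl1 was at 16.1 and 18.3 TPM (-0.45, SE 0.12, edgeR adjusted p = 0.0302) and Wdr5 at 481 and 548 TPM (0.27, SE 0.07, edgeR adjusted p = 0.0365), and each call was lost without either clone and against the lines of the same founder, while against XX Rnf12+/- Wdr5 in H turned to -0.0004. In I-TEL, Msl1 was at 30.1 and 32.4 TPM (0.41, SE 0.11, edgeR adjusted p = 0.0127), Wdr5 at 374 and 395 TPM (-0.26, SE 0.08, edgeR adjusted p = 0.0278) and Kansl1 at 67.3 and 78.1 TPM (0.19, SE 0.06, edgeR adjusted p = 0.0385). J, the other line of the second founder, had 28.6 and 27.5 TPM of Msl1 and 385 TPM of Wdr5 in both clones, and against J neither was called in I-TEL (0.12 and -0.04). Both calls were also lost without either I-TEL clone, and the Kansl1 call under 11 of 29 alternatives, turning to -0.0024 against XX Rnf12+/-. Of the partners, Hcfc1 was lower in A (-0.50, edgeR adjusted p = 0.0394, lost under 5 of 28 alternatives) and Ogt in C (-0.43, edgeR adjusted p = 0.00822, lost under 2 of 28).

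No member was called by edgeR in J (21.0% of all genes called), K (1.58%), C-G (0.59%) or B (0.53%). At an unadjusted p under 0.05 there were 2, 2, 1 and 2 members, and DESeq2 called 1, 0, 0 and 0. The largest of these differences was Msl2 in B, at 30.4 TPM (-0.41, 95% interval -0.64 to -0.17, edgeR adjusted p = 0.101).

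**Figure D4:**
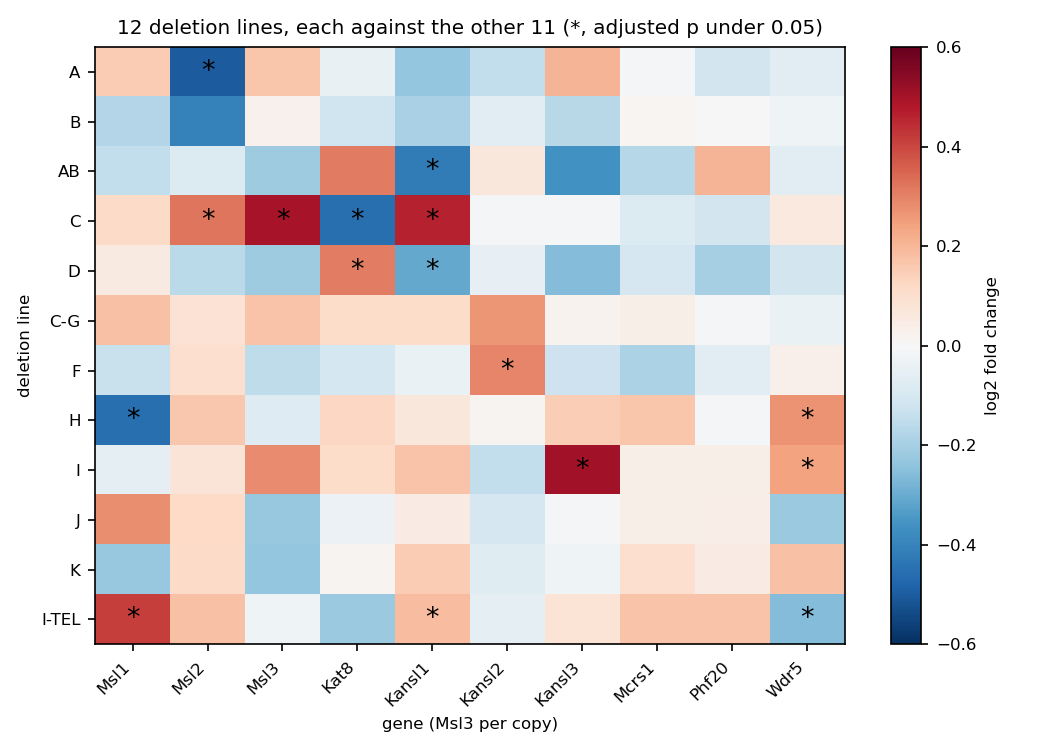
Log2 fold change of the 10 genes (columns, Msl3 per copy) in each of 12 deletion lines (rows) against the mean of the other 11; red is higher, blue lower and asterisks mark calls. Called cells are scattered over 8 lines, with 4 in C.

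In the line labelled I, where 11.1% of all genes were called, Kansl3 and Wdr5 were called higher. Kansl3 was at 69.8 TPM in clone 1 and 47.3 in clone 2, against 31.7 to 50.2 in the other 18 libraries, and the log2 fold change was 0.50 (SE 0.11, edgeR adjusted p = 0.00891). The call rested on clone 1, since it was 0.15 (edgeR adjusted p = 0.65) without it and 0.79 without clone 2. In clone 1, 65.8% of 278 allelic Kansl3 reads were 129 (95% Wilson interval 60.1% to 71.2%), against 48.4% of 161 in clone 2. Split by these shares, the level was 45.9 TPM from 129 and 23.9 from Cast in clone 1, and 22.9 and 24.4 in clone 2. The whole of chromosome 1 moved with it: 68.0% of the allelic reads of its 538 expressed coding genes were 129 in clone 1, where the other 29 libraries had 50.6% to 56.5%, and their median ratio to each gene's median over the 20 libraries was 1.47, against 1.01 in clone 2. The 4 windows into which the chromosome was divided had 67.7% to 69.2% 129 reads and median ratios of 1.42 to 1.51 in that clone. No copy number correction was made for it. Across the other autosomes that carry members, and chromosome 1 in the other libraries, the 129 share stayed within 47.3% to 56.5%. Wdr5 was at 443 and 561 TPM in I (0.24, SE 0.07, edgeR adjusted p = 0.0439), and that call was lost under 14 of 29 alternatives, without either clone among them (edgeR adjusted p = 0.101 and 0.549), and it turned to -0.027 against XX Rnf12+/-.

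**Figure D5:**
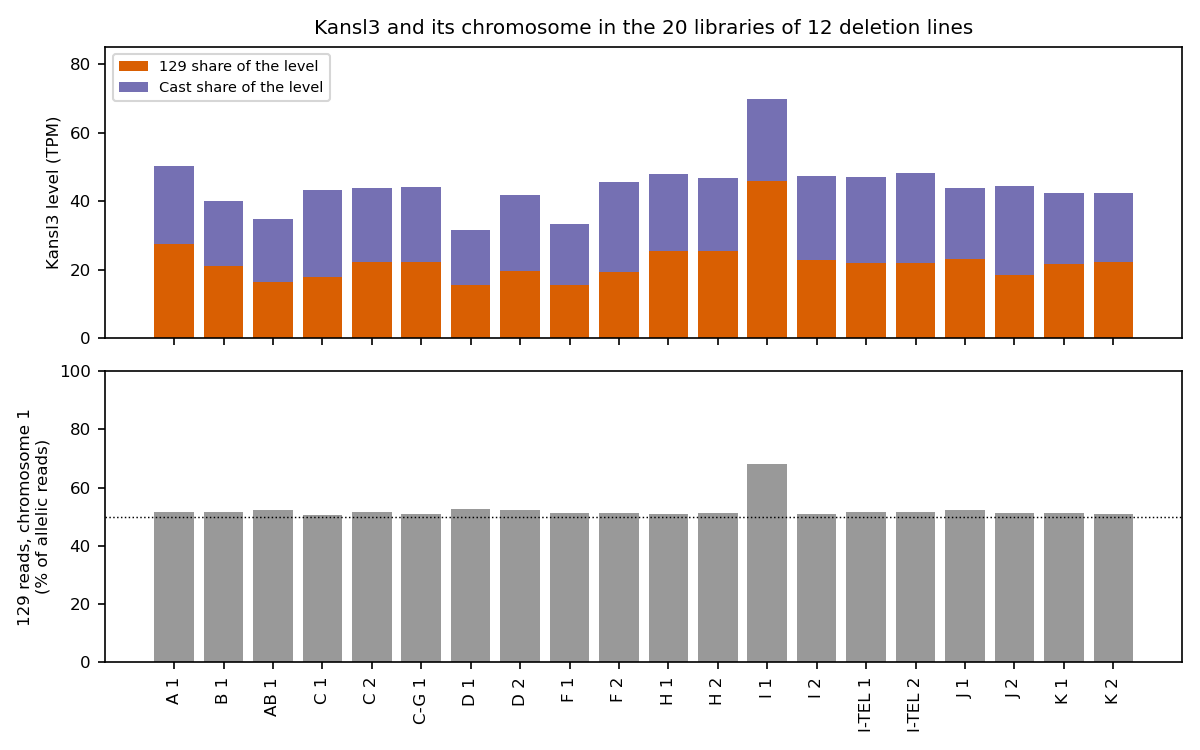
Top, Kansl3 level (TPM, bars from 0) in the 20 libraries of 12 lines, divided by the share of allelic reads from 129 and Cast; bottom, 129 share of allelic reads over chromosome 1. Deletion I clone 1 reaches 69.8 TPM and 68.0%, and the other 19 libraries lie between 31.7 and 50.2 TPM.

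The spread between clones of a line showed which members could be resolved. Over the 8 of these lines with 2 clones, the SD between clones of a line was 0.05 for Kansl2, 0.06 for Phf20 and 0.08 for Kansl1 on the log2 scale, against a median of 0.15 over all expressed genes. It was 0.29 for Msl3 and 0.21 for Kansl3. The Kansl3 SD and its ratio below include the line labelled I, at 69.8 TPM in clone 1 and 47.3 in clone 2. In that clone 1 the whole of chromosome 1 was higher, as given above. Neither Kansl3 value was computed without it, so they do not show the clone spread of Kansl3 alone. The SD between line means was 2.78 times that between clones for Kansl1 and 2.47 times for Kansl2, but 0.774 times for Msl3 and 0.983 times for Kansl3, with a median of 1.49 over all expressed genes.

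Genes of related complexes were counted as lists, with no set test. Of the H3K4 methyltransferase complexes that share WDR5, 14 of 15 genes were tested. In XCastO129, where 41.1% of all genes were called, 6 of them rose and none fell, and in X129OCast, where 54.0% were called, 9 rose and 2 fell, with medians of 0.21 and 0.35 against -0.06 and -0.07 over all genes. The methyltransferases Kmt2a (0.64 and 0.87, edgeR adjusted p = 0.000558 and 1.68e-05) and Kmt2d (0.47 and 1.04, edgeR adjusted p = 0.0302 and 5.17e-05) were among those that rose, while Ncoa6 (-0.57, edgeR adjusted p = 0.000851) and Rbbp5 (-0.29, edgeR adjusted p = 0.0402) fell in X129OCast. Against the same shares of all genes, 1 of 8 INO80 genes, which share MCRS1, rose in XCastO129 and 3 in X129OCast, among them the helicase Ruvbl1 (0.53 and 0.55, edgeR adjusted p = 0.000456 and 0.000201). Other MYST acetyltransferases were called in 1 of 4 and 3 of 4 cases, with Kat6a higher (0.28 and 0.22, edgeR adjusted p = 0.0153 and 0.0362) and Kat6b lower in X129OCast (-0.62, edgeR adjusted p = 0.00215). Among 6 deacetylases, Sirt1, which removes acetyl groups from histone H4, fell in both (-0.95 and -1.31, edgeR adjusted p = 0.000778 and 2.53e-05) and Hdac1 rose in both (0.56 and 0.74, edgeR adjusted p = 0.000257 and 8.91e-06), while Hdac3 fell in X129OCast (-0.37, edgeR adjusted p = 0.00295) and 3 passed in neither.

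Between the XO lines, 3 of 14 H3K4 methyltransferase genes were called, where 8.82% of all genes were, all higher in X129OCast, including Men1 (0.47, edgeR adjusted p = 0.00373). Against XX Rnf12+/-, the mean of the 12 deletion lines was lower for 4 of these 14 and higher for none, no larger a share than the 36.1% of all genes called, with Setd1b (-1.20, edgeR adjusted p = 0.000433) and Kdm6a per copy (-0.41, edgeR adjusted p = 0.00145) among them. Sirt1 was lower there too (-1.16, edgeR adjusted p = 3.52e-06). Of the 6 partners and paralogues, Hcfc1 and Ogt were tested and Msl3l2, Wdr5b, Phf20l1 and Kansl1l were below the filter.

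Within the 20 libraries, the genes whose log2 level followed Kat8 most closely were Rnf187 (Pearson r 0.862), Exosc4 (0.848) and Ruvbl1 (0.843), and for Msl3 per copy they were Smc5 (0.853), Myo6 (0.836) and Smim14 (0.82). These genes were picked as the highest of all genes tested. For the other members, r with Kat8 ran from -0.632 (Kansl1) to 0.07 (Wdr5), and with Msl3 from -0.441 (Kat8) to 0.57 (Kansl3). These libraries share culture, prefix and parental lines, and no test was made.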

How the data were processed

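Poly(A) RNA was sequenced as stranded libraries from 30 mouse ESC cultures. The deposited counts, made by the authors per Ensembl 98 gene, were raw and whole, for all reads and for reads assigned to 129 or Cast. Reads were trimmed (Trim Galore 0.6.7), aligned to mm10 with strain variants masked (HISAT2 2.2.1, SAMtools 1.10) and split by allele. The submitters' processing notes name HTSeq 0.12.4 as the counter while the methods of the study name featureCounts. Masked alignment can favour an allele, and reads shared by paralogues can be lost or split.

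Of 55421 genes, 55240 matched GENCODE M21, and its exon lengths gave TPM. Genes with a mean above 5 TPM in XX Rnf12+/- (11703, 477 X-linked) were tested with edgeR 4.0.16 (quasi-likelihood, all 30 libraries, TMM factors of autosomal genes, log copy number as offset, Benjamini-Hochberg adjustment over all genes, threshold 0.05). "Per copy" means with that offset. DESeq2 1.42.0, other size factors, filters, references, only the groups compared, a replicate block and leaving out each library were the alternatives. Exact permutation tests were enumerated over libraries, with clones of a line counted as separate units. Wilson intervals cover counting error only. The correlations over 20 libraries used log2 CPM with a pseudocount of 0.5. R 4.3.3 and Python 3.11.15 were used.

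Same-numbered libraries of different conditions did not deviate together in all cases (78 correlations, -0.418 to 0.771, 29 above 0.1), so the numbers were not taken as pairs. No 2 replicates agreed within sampling noise (chi-square per degree of freedom 4.01 to 39.6). The 10 members, Hcfc1, Ogt and the gene lists were chosen with earlier results of these data known. Named were the members, Hcfc1 and Ogt in every comparison, up to 2 higher and 2 lower called genes of each other list, and the 3 genes most correlated with Kat8 and with Msl3. Named outside this rule were Rlim and Msl3l2.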

Additional observations from a re-analysis of the deposited data

Results flagged for a closer look

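Msl1 was singled out because the test of the difference between both XO lines passed the threshold. It was at 17.8 and 19.0 TPM in X129OCast and at 27.1 and 27.7 in XCastO129, a log2 fold change of -0.53 (edgeR adjusted p = 0.0309), lower in both X129OCast libraries than in either XCastO129 library. Over its alternatives the adjusted p ran from 0.0191 by DESeq2 to 0.176 by edgeR without X129OCast library 1. A check for a library far from the others was not possible, since no condition had more than 2 libraries.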

How the results depend on the processing

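The main changes in the counts of members called were as follows, and not every change is listed. In the fit of only the groups compared, XX Rnf12+/- against XX wild type went from 1 to 0, XCastO129 from 5 to 3 and X129OCast against XCastO129 from 1 to 0. DESeq2 gave 1 member in E in place of 0, 6 in XCastO129 in place of 5 and 7 in X129OCast in place of 6. With XX Rnf12+/- as reference, 26 pairs of member and line were called in place of 16. With the lines of the same founder as reference, 11 were called. Same-numbered libraries share only a number by their labels, and with the replicate number as a block the count for XX Rnf12+/- against XX wild type was 0 (Wdr5, edgeR adjusted p = 0.0549). These 2 conditions had the highest correlation of same-numbered libraries of all pairs (0.771), and in both, library 1 had the higher feeder marker sum (268 against 96.9 TPM and 324 against 98.9).

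Leaving out 1 library gave 0 to 1 members for XX Rnf12+/- against XX wild type, 4 to 6 for XCastO129, 4 to 6 for X129OCast, 0 to 0 between the XO lines, 0 to 1 for E, 2 to 4 for the mean of 12 lines and 12 to 19 pairs. Msl3 per copy ran from -0.89 to -0.47 in X129OCast, -0.71 to -0.02 in XCastO129 and -0.12 to 0.064 in I-TEL, and the Cast reads in I-TEL from 0.12 to 0.48 on the log2 scale. Msl3 in X129OCast was -0.51 against XX wild type, not called. Msl3 in I-TEL, never called, was 0.020 without C in the reference (chosen after the data were seen), 0.29 against XX Rnf12+/- and 0.18 against J.

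Single genes that turned direction against XX Rnf12+/- were Ino80c (-0.068), Msl2 (-0.17), Setd1b (-0.043) and Sirt1 (-0.45) in C, Sirt1 (-0.60) and Wdr5 (-0.0004) in H, Kat6b (-0.0064), Sirt1 (-0.60) and Wdr5 (-0.027) in I, Kansl1 (-0.0024) in I-TEL and Ino80c (-0.13) in J. Men1 in I-TEL turned to -0.10 against J. Over 113 single gene results, 2293 of 2530 values kept direction and side of the threshold, 225 lost the call and 12 turned, and 35 results lost it under no alternative. The cause was not tested. With 2 libraries a group at most and 69 to 375 Msl3 counts a library, small changes of Msl3 were not detectable.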
